A study of Mus musculus with 8 samples.

Results

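Transcripts of 10 genes of ATP-dependent chromatin remodelers outside the SWI/SNF family were measured in mouse pachytene spermatocytes with and without a germ-cell deletion of *Arid1a*, which encodes a subunit of the SWI/SNF (BAF) complex. The members are *Smarca5*, *Baz1a*, *Baz1b*, *Baz2a* and *Bptf* of the ISWI complexes, *Ino80*, *Srcap* and *Ep400* of the INO80 family, and *Hells* and *Smarcad1*. They were taken by symbol from the 21058 Entrez genes of the deposited tables, and all 10 were found and had enough counts to be tested. The RNA-seq libraries came from 4 *Arid1a* WT and 4 *Arid1a* cKO samples of pachytene spermatocytes, which Sta-Put sedimentation had separated from dissociated adult testes by cell size. The *Arid1a* cKO males were homozygous for a floxed *Arid1a* allele and carried *Stra8-Cre*, a transgene that acts from the spermatogonial stage in germ cells. Males called *Arid1a* WT carried *Arid1a* fl/fl or *Arid1a* fl/+ without the transgene, so the controls also hold floxed alleles, and each purification pooled the testes of several males. Excision by *Stra8-Cre* is incomplete, and some *Arid1a* cKO spermatocytes still express ARID1A. The labels call the libraries biological replicates without saying whether each came from its own purification, so p-values measure the spread between these libraries, which may be technical.

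Chromatin remodelers use ATP to slide, evict or exchange nucleosomes. ISWI complexes pair the ATPase SMARCA5, or its close relative SMARCA1, with a large regulatory subunit, and they mostly slide and space nucleosomes. The INO80 family consists of big complexes built on the RUVBL1 and RUVBL2 ATPases, and SRCAP and EP400 place the histone variant H2A.Z into nucleosomes. HELLS and SMARCAD1 are SNF2-type ATPases linked to DNA methylation and to heterochromatin maintenance. In mouse meiosis, HELLS works with PRDM9 to open recombination hotspots, *Baz1a* is needed for spermiogenesis, and *Ino80* is needed for meiotic prophase.

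Libraries held 18308688 to 22044507 estimated counts in *Arid1a* WT and 15850961 to 21626772 in *Arid1a* cKO. *Arid1a* itself was at 98.8 to 128 CPM in *Arid1a* WT and 76.4 to 82.9 CPM in *Arid1a* cKO (CPM, counts scaled to a common TMM-adjusted library size), and the groups did not overlap. These counts cover the whole gene, including exons outside the deleted part, so they check the deletion only in part. Markers of the labelled cell type were the most abundant of the marker lists in *Arid1a* WT, at a summed 8489 to 9904 CPM in *Arid1a* WT and 7416 to 8077 CPM in *Arid1a* cKO, with 3 of 10 called higher and 6 lower. Markers of other cells also moved, and in every *Arid1a* cKO library the spermatid markers summed to more than those of the labelled type. All 10 spermatid markers were higher in *Arid1a* cKO (summed 1803 to 1994 CPM against 8435 to 8701 CPM), all 8 Sertoli cell markers were lower (456 to 519 CPM against 137 to 140 CPM), and all 5 Leydig cell markers were lower (54.1 to 57.0 CPM against 6.51 to 6.84 CPM). Leptotene and zygotene markers summed to 738 to 840 CPM against 445 to 467 CPM (4 of 7 higher, 3 lower), spermatogonial markers to 173 to 178 CPM against 146 to 154 CPM (6 of 8 higher, 1 lower), and macrophage and blood markers to 4.94 to 5.78 CPM against 10.8 to 13.0 CPM (4 of 7 higher, 1 lower). Among the markers in the table, 0 had no count in every library. The part of these cells in the results that follow was not tested, and in bulk RNA fewer cells of a type cannot be told apart from less RNA per cell.

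Of the 10 remodeler genes, 5 fell and 3 rose in *Arid1a* cKO, and 2 did not pass the test. *Baz1a* fell the most, with a log2 change of -2.33, followed by *Ino80*, *Srcap*, *Ep400* and *Bptf*. *Smarcad1*, *Hells* and *Baz1b* rose, and *Smarca5* and *Baz2a* were not called. The split depended on the scale, since limma called 1 member higher and 6 lower on log2(TPM + 1), and 1 higher and 7 lower on log2(TPM + 0.1) and on TPM rescaled to the listed genes. Changes were frequent across the transcriptome, since 74% of the 17643 genes tested were called by edgeR at an adjusted p of 0.05 or less, with 36.5% called higher and 37.5% called lower. The share of members called, 80%, lay near that background. The CPM values of the genotypes did not overlap at 8 members, and at 68.9% of all genes tested. The median log2 change was -0.20 over the 10 members and -0.02 over all genes tested. Sizes separated the members more than calls did, because 1.68% of the tested genes fell as far as *Baz1a* or farther, where 34.9% fell as far as *Bptf* or farther.

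**Figure D1:**
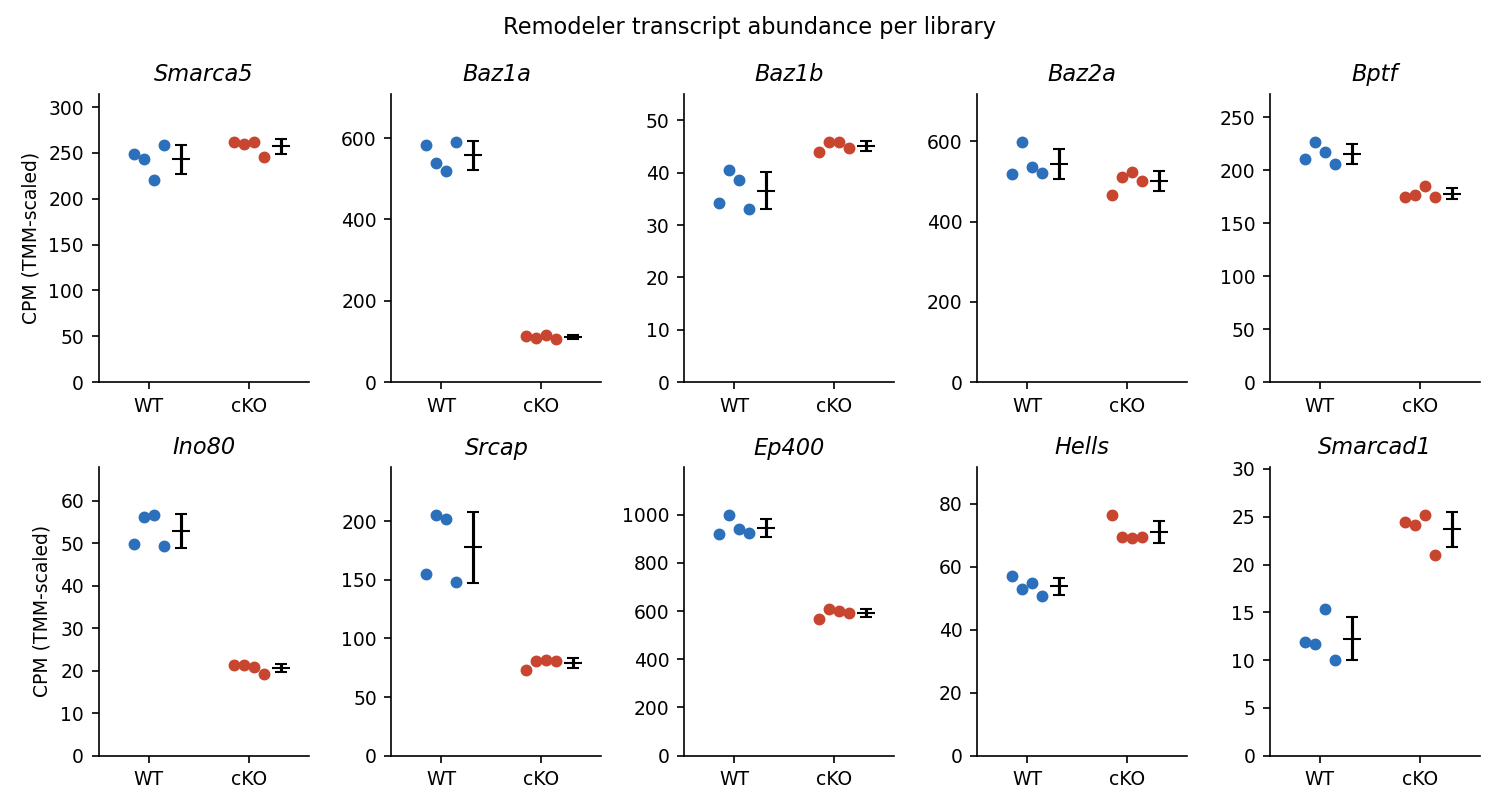
Transcript abundance of the 10 remodeler genes, 1 panel per gene, in CPM on linear axes from 0. Points are the 4 libraries of each genotype (replicates 1 to 4 from left to right, WT blue, cKO red) and the black mark is the mean with its SD. The *Baz1a* values drop from 518 to 591 CPM in WT to 107 to 115 CPM in cKO, and only the *Smarca5* and *Baz2a* panels show overlapping groups.

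*Smarca5* encodes the ISWI ATPase and spans 80699943 to 80739459 of chromosome 8 (GRCm38, as for all positions given). Its abundance was 249, 243, 221 and 259 CPM in *Arid1a* WT replicates 1 to 4, and 262, 259, 262 and 245 CPM in *Arid1a* cKO replicates 1 to 4. The groups overlapped, and the log2 change from WT to cKO was 0.08 (SE 0.05, adjusted p = 0.185 by edgeR's quasi-likelihood F test, adjusted after Benjamini and Hochberg over all genes). Its sign and its call depended on the scale. In TPM, which as a share of all transcripts also corrects for transcript length, the difference was -0.24 on log2(TPM + 1) (limma adjusted p = 0.0509), and it was called lower at -0.24 on log2(TPM + 0.1) (limma adjusted p = 0.0483) and at -0.39 on rescaled TPM (limma adjusted p = 0.00633). Without *Arid1a* WT replicate 4 the count-based value of 0.13 was called higher (edgeR adjusted p = 0.0342). Of the 31-base words in *Smarca5* transcripts, 33.3% also occur in other genes, with 22.8% found in the gene model *Gm13135*, 22.4% in *Gm13034* and 22.1% in *Gm13136*. Of these models the table lists *Gm13034*, with 247 to 460 counts per library against 3818 to 5693 for *Smarca5*, and reads of all 3 could have been exchanged with *Smarca5*, so its level is uncertain.

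*Baz1a* encodes ACF1, the subunit that joins SMARCA5 to form the ACF and CHRAC nucleosome-spacing complexes, and lies on chromosome 12 of GRCm38 from 54892989 to 55014371. It was at 583, 538, 518 and 591 CPM in *Arid1a* WT replicates 1 to 4 and at 113, 108, 115 and 107 CPM in *Arid1a* cKO replicates 1 to 4. Every *Arid1a* cKO library lay far below every *Arid1a* WT library, with 1661 to 2413 counts behind each *Arid1a* cKO value. The mean went from 558 ± 35.3 to 111 ± 4.11 CPM (SD over 4 libraries each), with a log2 change of -2.33 (SE 0.06, edgeR adjusted p = 8.91e-14). *Arid1a* WT libraries thus held 5.04 times as much *Baz1a* RNA as *Arid1a* cKO libraries. Under the other settings the value lay between -2.52 and -2.29.

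*Baz1b* encodes WSTF, the SMARCA5 partner of the WICH complex that acts at replication sites and in the DNA damage response, and lies on chromosome 5 from 135187323 to 135246131. Its *Arid1a* WT libraries were at 34.2, 40.6, 38.6 and 33.1 CPM and its *Arid1a* cKO libraries at 44.0, 46.0, 45.8 and 44.8 CPM. All *Arid1a* cKO values were higher, by less than the gap seen at *Baz1a* and in the other direction. The log2 change was 0.30 (SE 0.07, edgeR adjusted p = 0.000826). On log2(TPM + 1) the difference was 0.12 and was no longer called (limma adjusted p = 0.269). On rescaled TPM its sign turned, at -0.013, also without a call (limma adjusted p = 0.916).

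*Baz2a* encodes TIP5, the subunit of the nucleolar remodeling complex NoRC that silences ribosomal DNA, and lies on chromosome 10 from 128091370 to 128129303. It was at 518, 599, 536 and 520 CPM in *Arid1a* WT and 465, 511, 523 and 502 CPM in *Arid1a* cKO. The ranges overlapped, and the log2 change of -0.12 did not pass the test (SE 0.06, edgeR adjusted p = 0.0857). It was called lower under 4 other settings, at -0.22 with libraries scaled by their totals without TMM (edgeR adjusted p = 0.00569), at -0.18 on log2(TPM + 1) (limma adjusted p = 0.0468), at -0.19 on log2(TPM + 0.1) (limma adjusted p = 0.0457) and at -0.33 on rescaled TPM (limma adjusted p = 0.00189). The median of all genes was -0.12, -0.05, -0.10 and -0.13 in these settings and -0.02 in the reported fit.

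*Bptf* encodes the largest subunit of NURF, which reads methylated lysine 4 of histone H3, and lies on chromosome 11 from 107033081 to 107132147. *Arid1a* WT libraries were at 211, 227, 218 and 205 CPM and *Arid1a* cKO libraries at 175, 177, 186 and 175 CPM. The groups were separate, although the highest *Arid1a* cKO value and the lowest *Arid1a* WT value were close. The log2 change was -0.27 (SE 0.05, edgeR adjusted p = 0.000119), and it was -0.46 on log2(TPM + 1) and -0.61 on rescaled TPM.

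The other genes of ISWI complexes moved in both directions. Of 8 such genes, 3 rose and 4 fell, and their median log2 change was -0.12. Both directions were also frequent among all genes tested, at 36.5% called higher and 37.5% lower, with a median of -0.02. *Cecr2*, which encodes the subunit of the CERF complex with a known role in the testis, rose from 37.1 ± 2.39 CPM to 90.7 ± 4.17 CPM (SD over 4 libraries each), with a log2 change of 1.29 (SE 0.06). *Rsf1*, whose product forms the RSF complex with SMARCA5, rose by 0.55 log2 units (SE 0.05), and by 0.18 on rescaled TPM (limma adjusted p = 0.0271). *Rbbp4*, a histone-binding subunit that NURF shares with other chromatin complexes, had a log2 change of -0.91 (SE 0.06), and its X-linked paralog *Rbbp7* rose by 0.37 (SE 0.07), a call lost on rescaled TPM (0.079, limma adjusted p = 0.309). *Smarca1*, the X-linked paralog of *Smarca5*, was weakly expressed and went from 3.96 to 5.29 CPM in *Arid1a* WT to 2.31 to 2.87 CPM in *Arid1a* cKO, a log2 change of -0.90 (SE 0.14, edgeR adjusted p = 4.06e-05). *Baz2b*, the paralog of *Baz2a*, had a log2 change of -0.01 (SE 0.04, edgeR adjusted p = 0.769), and its sign turned positive under other scalings. It was called lower at -0.11 without TMM (edgeR adjusted p = 0.0174) and at -0.14 on rescaled TPM (limma adjusted p = 0.0119).

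**Figure D2:**
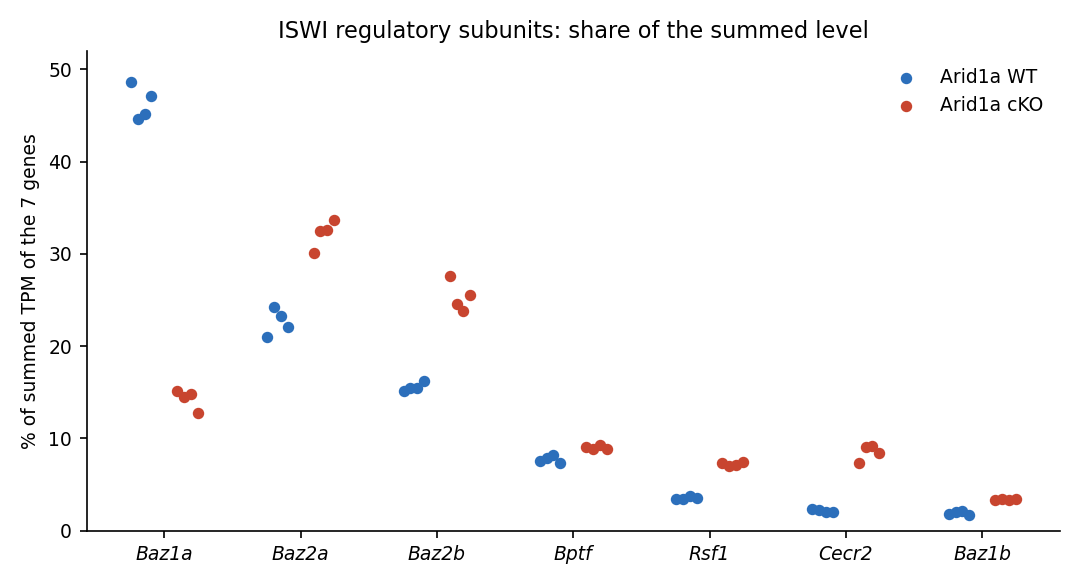
Share of each of the 7 ISWI regulatory subunit genes in their summed TPM, in percent, on a linear axis from 0. Points are libraries (WT blue on the left, cKO red on the right of each gene). *Baz1a* holds 44.6% to 48.7% of the sum in WT and 12.7% to 15.1% in cKO, and *Baz2a* is the largest of the 7 in cKO.

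Since these regulatory subunits bind a common set of ATPases, the level of each was also expressed as a share of the summed TPM of 7 of them. TPM allows levels to be compared between genes because it is scaled per length. *Baz1a* made up 48.7%, 44.6%, 45.2% and 47.1% of the sum in *Arid1a* WT and 15.1%, 14.5%, 14.8% and 12.7% in *Arid1a* cKO. It was the largest share in every *Arid1a* WT library and was below both *Baz2a* and *Baz2b* in every *Arid1a* cKO library. The *Baz1a* share fell (46.4% ± 1.87 to 14.3% ± 1.07, SD, n = 4, two-sided exact permutation test over 70 assignments of the libraries, p = 0.0286, the smallest that 4 against 4 allow). The 7 shares add up to the whole, so the drop of *Baz1a* alone raises the other 6, and their shares of this sum are given as values only. *Baz2a* was at 22.6% and 32.2% in the 2 genotypes, *Baz2b* at 15.6% and 25.4%, *Cecr2* at 2.18% and 8.52%, *Rsf1* at 3.54% and 7.24%, *Bptf* at 7.76% and 9.0%, and *Baz1b* at 1.90% and 3.37%. The level of *Baz2b* was 71.6 ± 2.98 TPM in *Arid1a* WT and 72.0 ± 2.64 TPM in *Arid1a* cKO, that of *Baz2a* was 104 and 91.5 TPM, and that of *Bptf* was 35.7 and 25.6 TPM. The summed TPM was 460 ± 18.2 in *Arid1a* WT and 284 ± 10.4 in *Arid1a* cKO (SD, n = 4). Whether the other 6 genes took part depended on the scale. They summed to 247 ± 17.7 and 243 ± 8.35 TPM as deposited (SD, n = 4, two-sided exact permutation p = 0.771), and to 310 ± 22 and 275 ± 8.98 in TPM rescaled to the listed genes (exact permutation p = 0.0286).

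Within the sum of those 6, an alternative added after seeing the data, the share of *Cecr2* went from 4.08% ± 0.398 to 9.94% ± 0.969 (SD, n = 4) and that of *Rsf1* from 6.61% to 8.45%, while *Baz2a* went from 42.2% ± 1.23 to 37.6% ± 1.41 and *Bptf* from 14.5% to 10.5%. *Baz1b* went from 3.54% to 3.93%. These 5 shares reached the smallest p of the design (exact permutation p = 0.0286, adjusted p = 0.0343 over 6), and *Baz2b*, at 29.1% and 29.6%, did not pass (exact permutation p = 0.686). The 6 shares also add up to the whole, so the rise of *Cecr2* alone lowers the others, and these 5 are not separate results.

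Ratios within a library do not depend on the scaling between libraries, and 7 pairs were compared. *Baz1a* exceeded *Baz1b* 21.6-fold to 28.1-fold in *Arid1a* WT and 3.72-fold to 4.58-fold in *Arid1a* cKO, a difference of -2.53 in the log2 ratio. The ratio of *Smarca5* to *Smarca1* was 38.4 to 53.9 in *Arid1a* WT and 82.0 to 93.9 in *Arid1a* cKO, a difference of 0.91. Both reached the smallest p of the design (two-sided exact permutation test, p = 0.0286 and adjusted p = 0.05 over 7 pairs). *Baz2a* and *Baz2b* kept more similar proportions, with a log2 ratio of 0.54 ± 0.10 in *Arid1a* WT and 0.34 ± 0.15 in *Arid1a* cKO (SD, n = 4), and their difference did not pass (exact permutation p = 0.0571, adjusted p = 0.08).

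*Ino80*, *Srcap* and *Ep400*, the 3 ATPases of the INO80 family, fell together. *Ino80* encodes the catalytic subunit of the INO80 complex and lies on chromosome 2 from 119373042 to 119478685. It was at 49.7, 56.1, 56.6 and 49.4 CPM in *Arid1a* WT and 21.3, 21.3, 20.8 and 19.2 CPM in *Arid1a* cKO, a log2 change of -1.36 (SE 0.07, edgeR adjusted p = 1.07e-10). Every *Arid1a* cKO library was under every *Arid1a* WT library, and 9.20% of the tested genes fell as far or farther.

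*Srcap*, whose product exchanges H2A for H2A.Z, lies on chromosome 7 from 127511983 to 127561219. Its *Arid1a* WT libraries fell into a lower and a higher pair, at 155 and 148 CPM for replicates 1 and 4 and at 205 and 202 CPM for replicates 2 and 3. Replicates 1 and 4 were also the lower pair at *Arid1a*, *Baz1b*, *Baz2a*, *Bptf*, *Ino80* and *Ep400*, and the higher pair at *Smarca5* and *Baz1a*. The *Arid1a* cKO libraries were at 72.7, 80.7, 81.9 and 80.8 CPM, below both pairs. The log2 change was -1.17 (SE 0.10, edgeR adjusted p = 5.84e-08). *Srcap* shares 60.9% of its 31-base words with the overlapping model *Gm42715*. Reads from the shared words could not be told apart by sequence, so its count is uncertain in level.

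*Ep400* encodes the large ATPase of the TIP60-EP400 complex, which combines H2A.Z exchange with histone acetylation and has also been linked to H3.3 deposition, and lies on chromosome 5 from 110664373 to 110770927. It was at 918, 999, 940 and 925 CPM in *Arid1a* WT and 566, 607, 600.5 and 594 CPM in *Arid1a* cKO. The groups lay far apart against their spread, with a log2 change of -0.68 (SE 0.05, edgeR adjusted p = 1.24e-08). Its size depended on transcript length, and with offsets for the length recovered from counts and TPM the log2 change was -0.36 (edgeR adjusted p = 3.07e-05).

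The 3 ATPases did not fall to the same extent. The ratio of *Srcap* to *Ep400* in TPM was 0.127 to 0.197 in *Arid1a* WT and 0.0859 to 0.0945 in *Arid1a* cKO, and that of *Ep400* to *Ino80* was 15.9 to 18.5 in *Arid1a* WT and 33.8 to 36.3 in *Arid1a* cKO. Both ratios separated the genotypes (two-sided exact permutation test, p = 0.0286, adjusted p = 0.05 over 7 pairs). *Srcap* relative to *Ino80* differed by 0.17 in the log2 ratio, less than the spread allowed to be called (log2 ratio 1.46 ± 0.18 against 1.64 ± 0.10, SD, n = 4, exact permutation p = 0.2).

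**Figure D3:**
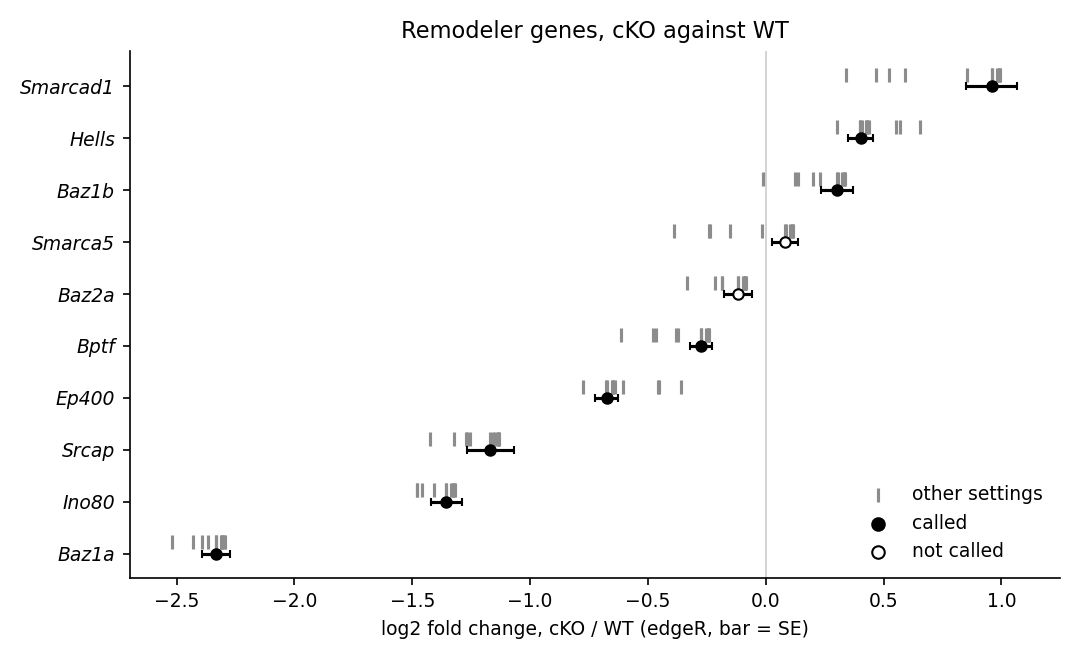
Log2 change (cKO over WT) of the 10 remodeler genes from edgeR with its SE, ordered by size. Filled circles are called at an adjusted p of 0.05 or less, open circles are not, and grey ticks are the values under the other settings. *Baz1a*, *Ino80* and *Srcap* lie below -1 under every setting drawn, while the ticks of *Smarca5* and *Baz1b* fall on both sides of 0.

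Because the 3 genes fell together, their promoters are shown, from 250 bases before to 50 bases after 1 annotated start site. The start sites used for *Ino80* and *Ep400* lie inside the gene spans given above, downstream of the upstream end of each gene. The *Ino80* window does not reach that end, at 119478685, so a promoter there was not searched. The promoter sequences come from RefSeq (GRCm38.p6). Those of 9 of the 10 members were used here, with 2 for *Smarcad1*, and the promoter of *Baz1a* was not analysed here. They were searched on both strands for TATAAA (the core promoter box), TGACGTCA (full CRE), the NRF1 palindrome, AAGATGGC (YY1) and CCGGAAGT (ETS). The E2F core was searched as TTCCCGC and the NF-Y box as CCAAT. The word searched for the MYB core was TAACNG. Capitals mark the matches, none of which overlap. The *Ino80* promoter is at chr2:119477638-119477937, minus strand, that of *Srcap* at chr7:127511733-127512032, plus strand and that of *Ep400* at chr5:110770668-110770967, minus strand, each written 5′ to 3′.
*Ino80*: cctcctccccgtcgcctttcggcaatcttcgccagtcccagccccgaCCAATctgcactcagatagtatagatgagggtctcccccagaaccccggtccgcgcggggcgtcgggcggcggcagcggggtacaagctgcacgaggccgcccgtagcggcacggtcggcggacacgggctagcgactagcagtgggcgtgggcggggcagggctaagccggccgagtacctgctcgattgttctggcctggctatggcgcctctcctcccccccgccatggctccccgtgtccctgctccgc
*Srcap*: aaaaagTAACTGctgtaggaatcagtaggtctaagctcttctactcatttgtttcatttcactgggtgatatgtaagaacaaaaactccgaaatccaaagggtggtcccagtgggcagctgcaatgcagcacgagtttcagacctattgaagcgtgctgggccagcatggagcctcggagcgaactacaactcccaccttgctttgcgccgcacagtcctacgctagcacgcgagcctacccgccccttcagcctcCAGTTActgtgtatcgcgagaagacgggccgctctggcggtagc
*Ep400*: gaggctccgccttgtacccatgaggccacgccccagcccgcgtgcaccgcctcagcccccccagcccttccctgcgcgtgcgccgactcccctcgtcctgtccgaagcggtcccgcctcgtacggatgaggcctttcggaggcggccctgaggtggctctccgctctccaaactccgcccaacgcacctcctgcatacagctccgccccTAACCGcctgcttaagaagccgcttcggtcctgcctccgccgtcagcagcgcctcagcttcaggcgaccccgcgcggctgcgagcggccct
The 3 sequences had no motif in common to all. *Srcap* held the MYB core at 2 places, starting 244 bases before the start site and, on the other strand, 6 bases after it. *Ep400* held it 41 bases before the start site, and *Ino80* held a CCAAT box 203 bases before it. Across all 32851 promoters in the table, 23.3% hold the MYB core and 37.4% a CCAAT box, so each match is a common one. *Ino80* and *Ep400* had 32 and 33 CpG dinucleotides in 300 bases and *Srcap* had 16, where the median promoter has 7.

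Subunits of the INO80 complex other than the ATPase included some of the largest falls of these lists. Of 14 genes, 7 fell, 2 rose and 5 were not called, and their median log2 change was -0.26. The shares over all genes tested were 37.5% lower and 36.5% higher, with a median of -0.02. *Actr5*, an actin-related protein found in the INO80 complex, went from 34.0 ± 2.14 CPM to 7.30 ± 0.36 CPM (SD over 4 libraries each), with a log2 change of -2.22 (SE 0.07). *Nfrkb*, which encodes another subunit of INO80, went from 103 ± 2.13 CPM to 28.1 ± 1.93 CPM, a log2 change of -1.87 (SE 0.06). *Actl6a* and *Ruvbl2*, whose products also sit in other complexes, rose by 0.49 and 0.35 log2 units (SE 0.05 and 0.06). On rescaled TPM *Actl6a* was at 0.17 (limma adjusted p = 0.00223), and *Ruvbl2* was at 0.038 and lost its call (limma adjusted p = 0.554).

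Genes of the SRCAP and TIP60-EP400 complexes also moved in both directions. Of 16 genes other than the ATPases, 10 fell and 4 rose, and the median log2 change was -0.33. Among all genes tested, 37.5% were called lower and 36.5% higher, with a median of -0.02. *Trrap*, the scaffold of histone acetyltransferase complexes, was at 187 to 254 CPM in *Arid1a* WT and 52.7 to 66.4 CPM in *Arid1a* cKO, a log2 change of -1.84 (SE 0.10). *Mrgbp*, a small subunit of TIP60-EP400, had a log2 change of -1.82 (SE 0.06). *Ing3* and *Epc2*, 2 further TIP60-EP400 subunits, rose by 1.59 and 1.01 log2 units (SE 0.06 each). Among the 3 genes of the H2A.Z substrate and its chaperone, *H2az1* had a log2 change of -0.89 (SE 0.06), from 373 ± 29.2 CPM to 201 ± 5.97 CPM (SD, n = 4). *H2az2*, the other H2A.Z gene, was called higher by 0.18, a call that was lost in several settings, and the chaperone gene *Anp32e* was not called at -0.16.

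**Figure D4:**
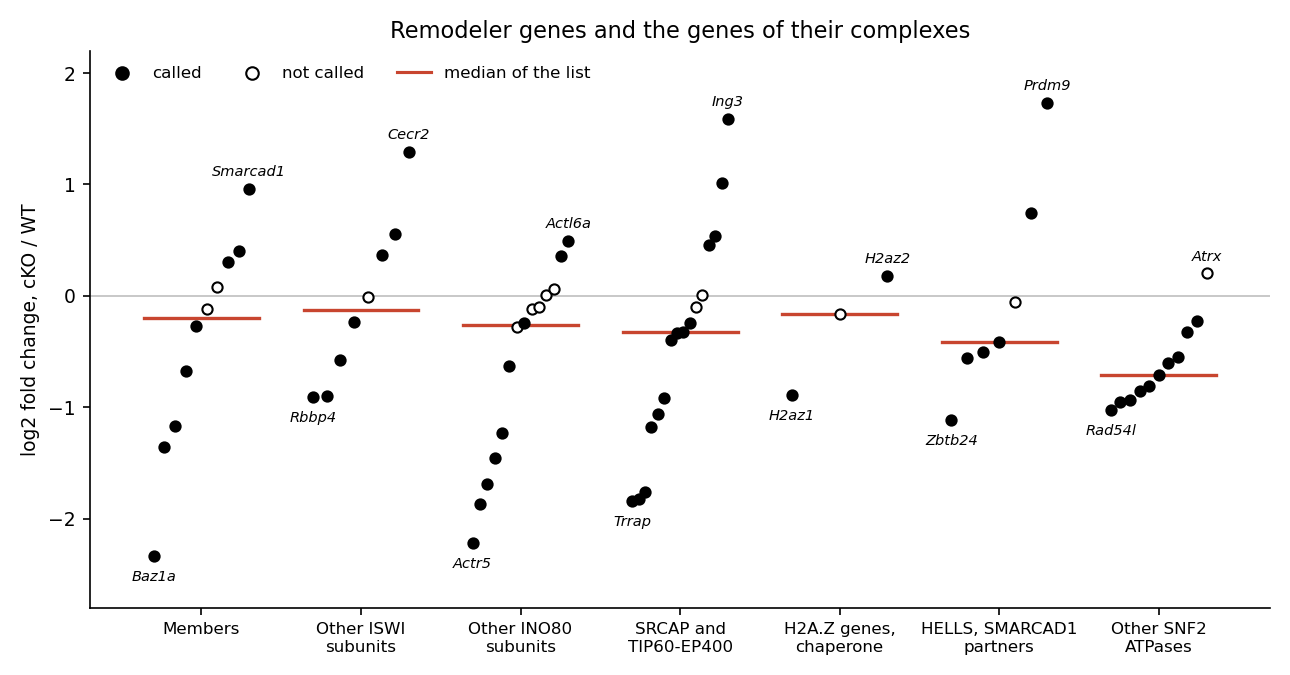
Log2 change (cKO over WT) of the remodeler genes and of the genes of their complexes, 1 point per gene, sorted within each list. Filled points are called and open points are not, the red line is the median of the list, and the lowest and highest genes are named. Every list but the other SNF2 ATPases holds called genes on both sides of 0, and the medians run from -0.12 to -0.71.

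*Hells* and *Smarcad1* rose. *Hells* encodes the SNF2-type ATPase that supports DNA methylation of repeats and lies on chromosome 19 from 38930262 to 38970470. It was at 56.9, 52.7, 54.8 and 50.5 CPM in *Arid1a* WT and 76.3, 69.4, 69.0 and 69.3 CPM in *Arid1a* cKO, where replicate 1 stood above the other 3. The groups did not overlap, and the log2 change was 0.40 (SE 0.05, edgeR adjusted p = 1.01e-05). With offsets for recovered transcript length it was 0.66.

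*Smarcad1* encodes an ATPase that restores silent chromatin after replication and acts in DNA end resection, and lies on chromosome 6 from 65042591 to 65116061. It was at 11.9, 11.7, 15.4 and 9.96 CPM in *Arid1a* WT and 24.4, 24.1, 25.2 and 21.0 CPM in *Arid1a* cKO. The lowest *Arid1a* cKO library was above the highest *Arid1a* WT library, and the log2 change was 0.96 (SE 0.11, edgeR adjusted p = 1.57e-06). In TPM the groups overlapped, at 4.96, 8.0, 13.2 and 6.47 in *Arid1a* WT and 12.4, 13.6, 10.6 and 8.25 in *Arid1a* cKO. On log2(TPM + 1) the difference was 0.47 and was not called (limma adjusted p = 0.111), and with offsets for recovered length the count-based value was 0.59 (edgeR adjusted p = 0.0402). The log2 ratio of *Hells* to *Smarcad1* was 1.90 ± 0.70 in *Arid1a* WT and 1.94 ± 0.34 in *Arid1a* cKO (SD, n = 4, two-sided exact permutation p = 0.914). From counts in place of TPM the log2 ratio differed by -0.57 (exact permutation, adjusted p = 0.04), and with 1 library left out the TPM-based difference lay between -0.22 (without *Arid1a* WT replicate 3) and 0.34 (without *Arid1a* WT replicate 1).

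The promoters of *Hells* (chr19:38930740-38931039, plus strand) and *Smarcad1* (chr6:65042341-65042640, plus strand, the more upstream of 2) are given in the same way, as the counterpart to the genes that fell. The start sites used for *Hells* and, among the promoters not shown, *Baz2a* also lie inside the gene. The *Hells* window does not reach the upstream end of the gene, at 38930262.
*Hells*: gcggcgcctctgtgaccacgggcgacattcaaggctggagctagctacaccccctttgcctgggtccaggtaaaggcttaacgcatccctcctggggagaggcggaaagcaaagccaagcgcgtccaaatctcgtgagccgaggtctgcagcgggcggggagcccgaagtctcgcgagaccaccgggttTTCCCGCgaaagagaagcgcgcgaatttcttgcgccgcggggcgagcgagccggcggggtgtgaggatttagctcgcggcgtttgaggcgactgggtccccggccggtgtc
*Smarcad1*: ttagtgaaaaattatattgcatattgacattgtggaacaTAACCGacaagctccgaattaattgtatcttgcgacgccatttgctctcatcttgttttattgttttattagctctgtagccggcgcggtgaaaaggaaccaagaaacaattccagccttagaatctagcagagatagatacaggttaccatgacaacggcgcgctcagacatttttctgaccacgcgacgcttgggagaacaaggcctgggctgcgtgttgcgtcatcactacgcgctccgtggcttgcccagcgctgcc
*Hells* held an E2F core 61 bases before the start site, a word found in 4.6% of all promoters, and the only one among the 9 members with a promoter. *Smarcad1* held a MYB core 211 bases before it, so the MYB core was found at a gene that rose as well as at 2 that fell. A YY1 word, found in 2.75% of all promoters, was found in *Bptf*, and CCAAT was also found in *Baz1b* and in the other *Smarcad1* promoter. The TATAAA box (13.6% of all promoters), the full CRE (1.79%), the NRF1 palindrome (0.971%) and the ETS word (3.89%) were found in 0 of the 9 members, which says only that these letters are not in these windows.

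Known partners of HELLS and SMARCAD1 moved in both directions, with 2 of 7 higher and 4 lower and a median log2 change of -0.42. For all genes tested, the shares were 36.5% higher and 37.5% lower, and the median was -0.02. *Prdm9*, which encodes the methyltransferase that marks meiotic hotspots and is also 1 of the 7 leptotene and zygotene markers above, was at 2.70 to 5.17 CPM in *Arid1a* WT and 10.8 to 11.9 CPM in *Arid1a* cKO, a log2 change of 1.73 (SE 0.16). *Cdca7*, the zinc finger partner that recruits HELLS to chromatin, rose by 0.74 log2 units (SE 0.07), and by 0.40 on rescaled TPM (limma adjusted p = 0.00112). *Zbtb24*, a transcription factor of the same pathway, had a log2 change of -1.11 (SE 0.06), and *Trim28*, the corepressor that binds SMARCAD1, one of -0.56 (SE 0.05).

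In a list of 11 other SNF2-family ATPases, without those of SWI/SNF and CHD complexes, most genes fell. Of the 11, 10 fell and 0 rose by edgeR (0 at an unadjusted p under 0.05, and 0 with DESeq2), and *Atrx* was not called at 0.20. Over all genes tested, 37.5% were called lower and 36.5% higher. Without *Arid1a* WT replicate 3, 1 of the 11 was called higher. Their median log2 change was -0.71, where it was -0.20 over the 10 members. *Rad54l*, a DNA translocase of homologous recombination, had a log2 change of -1.02 (SE 0.08), and *Ttf2*, a transcription termination factor, one of -0.95 (SE 0.09).

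Dividing counts by TPM recovers, per library, the mean effective length of the RNAs counted for a gene, which was set against the median gene of that library. This measure of isoform use was tested with limma over 13958 genes, of which 50.8% were called, with a median difference of 0.06 log2 units. Among the members, 3 of 10 were called. *Ep400* had the largest called difference, with relative lengths of 1.01, 1.03, 1.00 and 0.954 in *Arid1a* WT and 0.794, 0.794, 0.813 and 0.862 in *Arid1a* cKO (mean of *Arid1a* WT set to 1). Its transcripts were shorter in all *Arid1a* cKO libraries, by -0.29 log2 units (SE 0.04, limma adjusted p = 0.000395). GENCODE M21 lists 6 protein-coding transcripts of *Ep400*, from 974 to 10685 bases, and the tables do not show which of them changed.

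*Bptf* and *Baz1b* had longer transcripts in *Arid1a* cKO, by 0.13 and 0.09 log2 units (SE 0.02 each, limma adjusted p = 0.000426 and 0.0172), against a median of 0.06 over all genes, and with the replicate number as a block *Baz1b* lost its call (0.093, limma adjusted p = 0.0692). *Smarcad1* varied most between libraries of 1 genotype. Its relative length was 1.42, 0.918, 0.744 and 0.921 in *Arid1a* WT and 1.14, 1.04, 1.40 and 1.48 in *Arid1a* cKO, and the difference of 0.36 did not pass the test (limma adjusted p = 0.207). *Smarca5* was short in *Arid1a* WT replicate 3 alone, at 0.742 against 1.04 to 1.11 in the other 3. Among the *Arid1a* WT libraries, *Hells* was short in replicate 1, at 0.828 against 1.03 to 1.10. The *Arid1a* cKO libraries were as short at *Hells*, at 0.877, 0.858, 0.809 and 0.819. Over all libraries the length differences were 0.25 for *Smarca5* (limma adjusted p = 0.159) and -0.24 for *Hells* (limma adjusted p = 0.0576), and neither was called. Of the 8 fits that each left out 1 library, 1 called the *Smarca5* difference (0.11 without *Arid1a* WT replicate 3, limma adjusted p = 0.0197) and 1 the *Hells* difference (-0.33 without *Arid1a* WT replicate 1, limma adjusted p = 0.000902), so these 2 calls rest on the library left out.

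**Figure D5:**
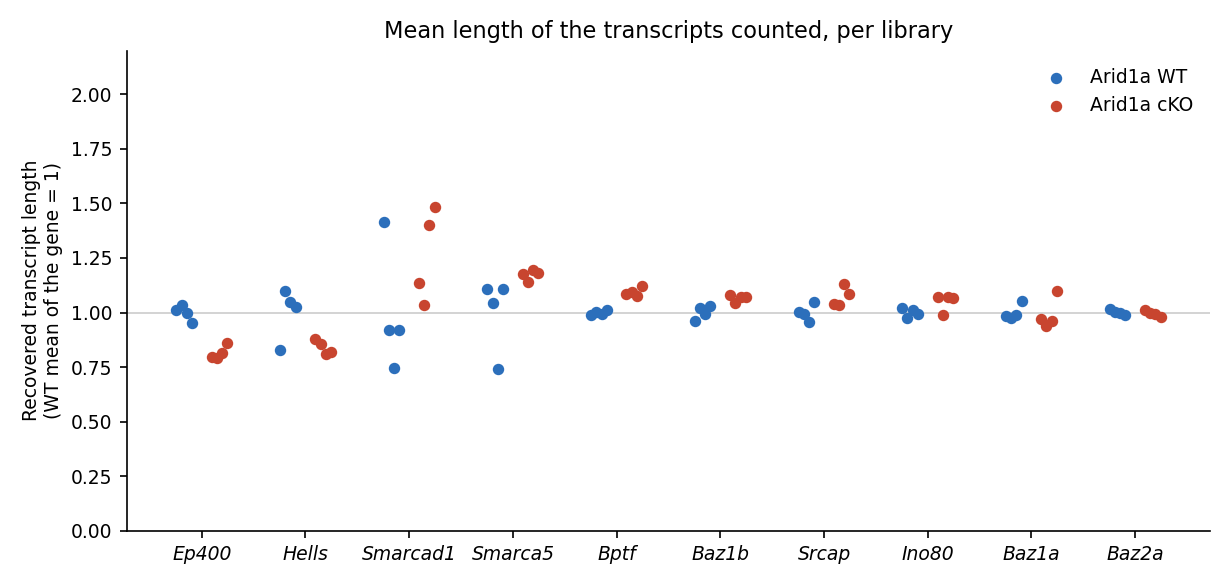
Recovered mean transcript length of the 10 remodeler genes per library, relative to the WT mean of each gene, on a linear axis from 0. Points are libraries (WT blue on the left, cKO red on the right of each gene). *Ep400* lies at 0.794 to 0.862 in cKO, *Baz2a* stays near 1 in all libraries, and *Smarcad1* spreads from 0.744 to 1.48.

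On the TPM scale, the order of the members' levels changed with the genotype. In *Arid1a* WT, *Ep400* and *Baz1a* led at 213 ± 12 and 213 ± 4.65 TPM (SD, n = 4) with overlapping ranges, followed by *Baz2a* at 104 ± 10.5 and *Smarca5* at 91.3 ± 15.6, which also overlapped. *Bptf* (35.7 ± 2.83), *Srcap* (35.3 ± 8.35) and *Hells* (28.7 ± 4.35) came next, each overlapping its neighbour. *Ino80* (12.6 ± 1.52) followed, clear of *Hells* and *Baz1b*, and last came *Baz1b* (8.75 ± 1.12) and *Smarcad1* (8.17 ± 3.60), which overlapped. *Smarcad1* also reached into the *Ino80* range, at 13.2 TPM in *Arid1a* WT replicate 3. In *Arid1a* cKO, *Ep400* (155 ± 7.86), *Baz2a* (91.5 ± 6.06) and *Smarca5* (76.6 ± 3.04) led without overlap, and *Hells* (42.3 ± 1.1) stood beside *Baz1a* (40.6 ± 3.77) with overlapping ranges. *Bptf* (25.6 ± 1.30) followed on its own, *Srcap* (13.8 ± 0.709), *Smarcad1* (11.2 ± 2.35) and *Baz1b* (9.57 ± 0.396) formed an overlapping run, and *Ino80* was lowest at 4.43 ± 0.332. The deposited TPM of the listed genes made up 78.1% to 81.1% of the library total in *Arid1a* WT and 88.1% to 88.6% in *Arid1a* cKO, so levels set across genotypes in TPM carry that offset, while the order within a genotype does not.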

How the data were processed

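RNA was sequenced from 4 *Arid1a* WT and 4 *Arid1a* cKO samples, grouped and numbered by their labels. Salmon had been run by the authors on mm10 transcripts, and tximport had given values per Entrez gene. They deposited estimated counts, unscaled for library size or length, and TPM over all quantified transcripts. A deposited table of the authors' own DESeq2 comparison (log2 fold changes, SEs, p-values) was not used. RefSeq (GRCm38.p6, the build of mm10) gave symbols and coordinates for 21036 of the 21058 Entrez IDs.

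Estimated counts were rounded to whole numbers. Genes with a summed count of at least 10 were tested with edgeR 4.0.16 (TMM, quasi-likelihood, genotype only) in R 4.3.3, with Benjamini-Hochberg adjustment over all genes and calls at 0.05. The standard error was the log2 change over the square root of F. Lengths were tested with limma 3.58.1 on genes with at least 10 counts in every library, and ratios and shares by exact permutation. Shared 31-base words were counted in GENCODE M21 transcripts on both strands. Fits were tested on simulated data first.

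Alternatives were DESeq2 1.42.0, other scalings, other count filters, length offsets, limma on TPM, a replicate block, an adjusted p of 0.01 and each library left out. Rescaled TPM (scaled to 1 total over the listed genes) and subunit shares without *Baz1a* were added after seeing the data. Replicate pairs differed by more than counting noise, so each library was counted once. Chi-square per degree of freedom was 4.38 to 18.0 in *Arid1a* WT pairs and 1.71 to 3.45 in *Arid1a* cKO pairs. From each list of related genes, those named were up to 2 rises and 2 falls, the largest among called genes without overlap whose mean log2 CPM was 1 or more; *Smarca1*, *Rbbp7* and *Baz2b* were also named by rule, and *H2az2*, *Anp32e*, *Atrx*, *Gm13034*, *Gm13135*, *Gm13136* and *Gm42715* after their values were seen. Members and lists were chosen with earlier results of these data known.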

Additional observations from a re-analysis of the deposited data

Results flagged for a closer look

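In each genotype, the CPM, TPM and recovered transcript length of *Arid1a* and the 10 members were screened for 1 library that stood apart from its group, with Dixon's ratio of gap to range. Of the 66 groups, 3 passed, where chance gives about 3.3. *Srcap* was low in *Arid1a* cKO replicate 1, at 72.7 CPM against 80.7 to 81.9 CPM (gap divided by range 0.866). *Hells* was high in the same library, at 76.3 CPM against 69.0 to 69.4 CPM (0.956). The relative transcript length of *Ino80* was low in *Arid1a* cKO replicate 2, at 0.990 against 1.07 in the other 3 (0.926), and without that library its length difference of 0.10 was called (limma adjusted p = 0.00392).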

How the results depend on the processing

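*Baz1a*, *Ino80*, *Srcap*, *Ep400*, *Bptf* and *Hells* kept their direction and their call under every alternative run. The cause of the changes below was not tested. *Smarca5* turned to -0.015 without TMM, -0.15 with length offsets, -0.24 on log2(TPM + 1) and on log2(TPM + 0.1), and -0.39 on rescaled TPM, and was called lower on the last 2 of these scales. *Baz1b* lost its call at 0.12 and 0.14 on log2(TPM + 1) and log2(TPM + 0.1) and was -0.013 on rescaled TPM, and *Smarcad1* lost its call at 0.47, 0.52 and 0.34. *Baz2a* gained a call at -0.22 without TMM, -0.18 and -0.19 on the TPM scales and -0.33 on rescaled TPM. The members called higher were 1 on all 3 TPM scales, and those called lower were 6, 7 and 7. *Baz2b* turned to 0.014 with DESeq2 and with its size factors, 0.020 with autosomal TMM, 0.00686 with filterByExpr, 0.00712 and 0.00722 on the TPM scales and 0.10 with length offsets, and was called lower at -0.11 without TMM and -0.14 on rescaled TPM. On rescaled TPM *Rbbp7* (0.079) and *Ruvbl2* (0.038) lost their calls, and 1 INO80 subunit was higher. Among H2A.Z genes, 0 were higher without TMM, with length offsets, on all TPM scales and at an adjusted p of 0.01, and 2 were lower without TMM and on rescaled TPM. From counts in place of TPM, the *Hells* to *Smarcad1* log2 ratio differed by -0.57 (exact permutation, adjusted p = 0.04). Within the sum without *Baz1a*, added after seeing the data, the share of *Baz2a* differed by -4.65 percentage points, that of *Bptf* by -3.96 and that of *Baz2b* by 0.53, the last without a call. The length difference of *Baz2a* was 0.0014 with at least 50 counts in every library.

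With each library left out, the log2 change of *Smarca5* lay between 0.040 and 0.13 and that of *Baz2a* between -0.14 and -0.068. The members called higher numbered 3 to 4, H2A.Z genes higher 0 to 1, and other SNF2-family ATPases higher 0 to 1. Log2 ratio differences lay between -0.22 and 0.34 for *Hells* to *Smarcad1* and between -0.23 and -0.12 for *Baz2a* to *Baz2b*. For *Srcap* to *Ino80* the difference lay between 0.098 and 0.23. Length differences lay between 0.11 and 0.30 for *Smarca5*, -0.062 and 0.013 for *Baz1a*, -0.0133 and 0.0015 for *Baz2a*, 0.059 and 0.099 for *Ino80*, 0.074 and 0.12 for *Srcap*, -0.33 and -0.19 for *Hells*, and 0.24 and 0.55 for *Smarcad1*. Those of *Srcap* (without WT replicate 4) and *Smarcad1* (without WT replicate 1) were each called in 1 of these fits, and the *Baz2a* to *Baz2b* ratio without cKO replicate 3.

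The replicate numbers do not pair the samples across genotypes. *Arid1a* WT and *Arid1a* cKO samples come from different animals, and their deviations correlated from -0.14 to 0.16 within numbers. With the number as a block, the members' log2 changes kept their calls (*Baz1a* -2.33). The length difference of *Baz1b* lost its call (0.093, limma adjusted p = 0.0692) and that of *Ino80* gained one (0.071, limma adjusted p = 0.0394). Counting error limits *Smarcad1* most, at 219 to 526 counts per library.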
